A study of Mus musculus with 2 samples.

Results

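Antisense transcription in the mouse adrenal gland was examined through transcript models that consist of 1 exon, lie on the strand opposite to an annotated gene and were supported by 5 or more long reads in a library. The models carry identifiers of TALON, a program that sorts long reads into annotated and new transcript models. Of 164995 models over both libraries, 20561 were single-exon antisense models, and 1663 of these carried 5 or more reads, 442 in replicate 1 and 1221 in replicate 2. Models that overlapped on the same strand were merged between the libraries, which gave 1250 loci on mouse chromosomes and 2 on the added control RNAs. Since the loci were selected on their reads, their read numbers are given as a description.

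The study held 1 group of 2 libraries, both made from total RNA of adrenal glands. The mice were B6CASTF1/J females, the hybrid of the C57BL/6J and CAST/EiJ strains, at 25 days of age, and the labels give no treatment or engineered allele. The tissue descriptions name Female 03 for replicate 1 and Female 04 for replicate 2, whereas both library descriptions name Female 03 and both samples carry 1 donor number, so whether the 2 libraries came from 2 animals cannot be told from the labels. Any test between them compares these 2 libraries only. Reads assigned to annotated mouse genes numbered 397176 in replicate 1 and 712032 in replicate 2, and CPM values are reads scaled to 1000000 of those reads. Adrenal cortex markers summed to 73678 and 66564 CPM and medulla markers to 10892 and 11936 CPM. Red blood cell markers summed to 2613 and 3163 CPM and adipocyte markers to 1823 and 1358 CPM. Endothelium markers stood at 73 and 73 CPM and macrophage markers at 43 and 66 CPM. None of the 5 kidney markers had a read, and the 5 liver markers had 93 reads in replicate 1 and 1 in replicate 2.

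Antisense RNA is made from the strand opposite to a gene. Some antisense RNAs start at a bidirectional promoter, some arise where a neighbouring gene runs past its end, and some act on the gene they overlap. An unspliced model carries no splice junction that would fix its strand, so in long-read libraries its strand rests on the read's tail and primer sequences. Oligo(dT) primers, which copy RNA from its poly(A) tail, can also anneal to runs of adenine inside a transcript or at genomic sequence.

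The sequence at the 3′ end of the loci is shown first, because its adenine content differed from that of the same transcripts elsewhere. Each line gives the 10 bases up to the 3′ end of the most-read model of a locus in lower case and the next 20 bases in capitals. Bases are on the strand of the antisense model, in mm10 (GRCm38) coordinates. The 2 Gm2a models were recorded as 1 base, so only the last lower-case base of each lies in the model. The first 9 loci are followed by 12 to 20 adenines in 20 bases, and the other 5 by 0 to 6.
Actb, chr5:142903645-142903674, plus strand: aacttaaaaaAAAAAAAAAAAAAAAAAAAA
2900097C17Rik, chr2:156391505-156391534, plus strand: cacaaaatgtAAAAAAAAAAAAAAAAAAAA
Nfia, chr4:98112006-98112035, minus strand: acttaagaacAAAAAAAACAAAAAAAAACA
Tacc1, chr8:25158024-25158053, plus strand: agattaaggcAAAAAAAAAAAAAAAAAAAA
Ogt, chrX:101653600-101653629, minus strand: agttctcacaAAAAAAAAAAAAAACAAAAA
Spry2, chr14:105892586-105892615, plus strand: cacatggaccAAAAAAAAAAAAAAAAAAAA
Soat1, chr1:156428523-156428552, plus strand: acatggtttgAAAAAAAAAAAAAAAAAAAA
Gm2a, chr11:55110205-55110234, minus strand: attcttgaagGCATCATACCAAAAAAAAAA
Gm2a, chr11:55110208-55110237, minus strand: cccattcttgAAGGCATCATACCAAAAAAA
Tubb5, chr17:35834977-35835006, plus strand: ctgccttaggCCTCCTCTTCTGCCTCCTCT
Kcnk3, chr5:30622694-30622723, minus strand: gggcgtgtcgCTGTAGCGGCCGCCGCCTCC
Malat1, chr19:5798991-5799020, plus strand: cttaatgcagCATTTTCACTTCATTTCTAT
Ptp4a2, chr4:129839131-129839160, minus strand: aaaaaaaaaaGCCTACTACTTCTGAGGCCA
Dhrs3, chr4:144893057-144893086, minus strand: aaaaaaaaaaGCACCAACCACAGCGCGCAC
The Dhrs3 bases come from RefSeq's promoter table for GRCm38.p6 and the others from the GENCODE M21 transcripts. The Ptp4a2 and Dhrs3 models themselves end in 10 adenines that are part of the reference sequence.

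Over all loci, 486 of 1250 (38.9%) had the 20 bases after their 3′ end inside 1 annotated exon, where the sequence could be read. At least 12 of the 20 bases were adenine at 217 of the 486 loci (44.7%), and all 20 were adenine at 63. Of all 1862811 windows of 20 bases on the antisense strand of the same 470 transcripts, 2.53% held 12 or more adenines. The 20 bases before the 5′ end served as a second comparison, and 15 of 478 loci (3.14%) reached 12 adenines there. Loci under the read minimum stood between, with 33.1% of 3276 readable 3′ ends followed by 12 or more adenines.

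**Figure D1:**
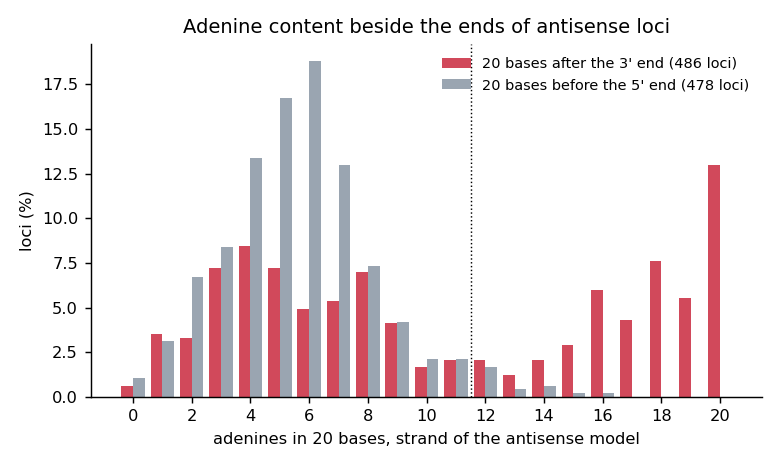
Share of loci (vertical axis, %) by the number of adenines in 20 bases (horizontal axis), for the bases after the 3′ end (red, 486 loci) and before the 5′ end (grey, 478 loci), and the dotted line marks 12 adenines. The 3′ ends have a second group of loci from 12 to 20 adenines, with 63 loci at 20, while 15 loci reach 12 before the 5′ end.

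The adenine content differed with how the 3′ end was recorded. At 240 of the 486 loci the 3′ end lay exactly on an annotated exon boundary, and 25 of these (10.4%) were followed by 12 or more adenines. At the other 246 loci the share was 192 (78.0%). Loci inside exons reached 58.8% of 308 and loci that ran across an exon and an intron 17.7% of 164. The share was 60.9% where most of the locus lay in a 3′ untranslated region. The poly(A) signals AATAAA or ATTAAA, searched on the antisense strand between 50 and 10 bases before the 3′ end, were present at 30 of 475 readable loci (6.32%), against 4.02% of all windows of that length in the same transcripts. Whether priming at these adenines set the 3′ ends was not tested.

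The 3′ ends were also the better repeated ends. Among 1040 loci with reads in both libraries, the most-read models of the 2 libraries ended within 10 bases of each other at the 3′ end in 77.9% and at the 5′ end in 36.2%, with median distances of 0 and 262 bases. Leaving out ends that lie on annotated exon boundaries, 395 of 737 loci (53.6%) had the same 3′ base in both libraries and 84 of 654 (12.8%) the same 5′ base. With ends on exon boundaries kept in, 154 of 197 loci (78.2%) with 12 or more adenines after the 3′ end kept that end within 10 bases. Of those with fewer adenines, 173 of 231 (74.9%) did. The 2 groups differ in how the end was recorded, since 25 of 240 loci on a boundary had 12 or more adenines and 192 of 246 off one. These 2 shares therefore do not compare like ends.

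The 1250 loci took 7715 reads in replicate 1 and 17676 in replicate 2, which was 1.85% and 2.34% of all mouse reads. They held 50.05% and 51.2% of the reads of all single-exon antisense models, and the 10 loci with the most reads held 24.3% and 21.5% of the reads of the 1250. A locus had 10 reads in the median over both libraries and 2045 at the highest. Just inside the rule, 431 models had exactly 5 reads, and just outside it, 665 had exactly 4. Widths ran from 1 to 8036 bases with a median of 1557, and 22 loci were 1 base wide. Of the models with 5 or more reads, 33 were recorded with a length of 1 base.

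**Figure D2:**
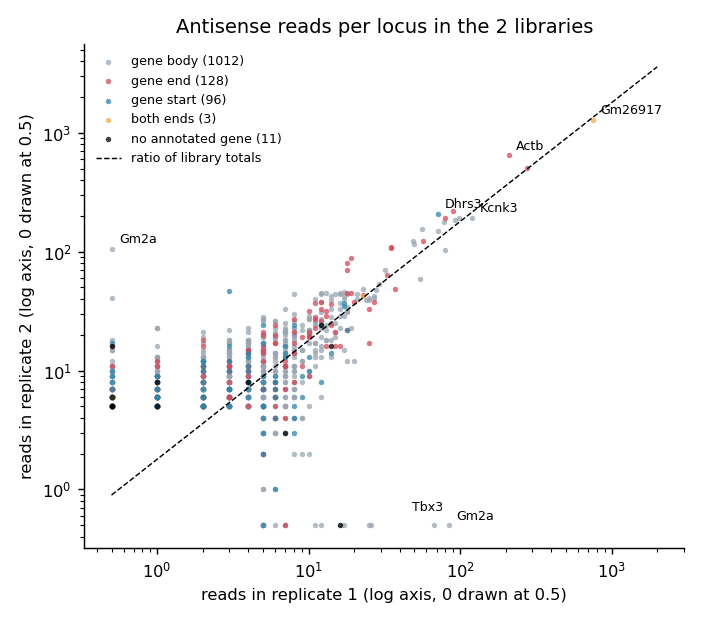
Each point is 1 of the 1250 loci, with its reads in replicate 1 (horizontal) and replicate 2 (vertical) on log axes, 0 drawn at 0.5, coloured by place on the opposite gene, and the dashed line is the ratio of the library totals. Most loci with more reads lie near the line, while Tbx3 and 1 Gm2a locus lie on the bottom edge and another Gm2a locus on the left edge.

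Repeats were read in the library that had not selected the model. Of 440 models with 5 or more reads in replicate 1, 420 (95.5%, exact binomial 95% interval 93.1% to 97.2%) were overlapped by a single-exon antisense model of replicate 2 on the same strand. Of 1219 such models in replicate 2, 1028 (84.3%, 82.2% to 86.3%) were overlapped in the shallower replicate 1. For models with 1 read the shares were 38.9% and 15.6%. The intervals treat models as independent draws and cover counting error only, not the spread between animals. The reads carry no molecular identifiers. Loci inside exons had 13 reads in the median and loci outside exons 9, and the shares by exon context were not matched for reads. Loci inside exons repeated in replicate 1 at 91.8% of 342 (88.4% to 94.5%) and loci outside exons at 79.8% of 420 (75.6% to 83.5%). In the other direction the order was not seen, since loci chosen in replicate 1 repeated in replicate 2 at 93.2% of 177 inside exons (88.5% to 96.4%) and 94.9% of 99 outside (88.6% to 98.3%).

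The added ERCC control RNAs are synthetic and have 1 annotated strand. Control RNAs with sense reads, 45 in replicate 1 and 48 in replicate 2, had 8817 and 14315 sense reads and 0 antisense reads. Taking 3 reads as the limit of a count of 0, these RNAs allow a share of up to 0.0340% and 0.0210%. Another 4 control RNAs had antisense reads and no sense read, 59 reads in replicate 1 and 128 in replicate 2, and ERCC-00009 took 46 and 102 of them. Every control RNA with reads had them on 1 strand only, and whether those 4 are annotated on the strand that was added was not tested. On mouse protein-coding genes, single-exon antisense models held 3.36% and 4.25% of the reads on both strands.

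Relative to the opposite gene, 1012 of the 1239 loci with an annotated partner (81.7%) lay in the gene body. A further 128 (10.3%) came within 500 bases of the gene's end, 96 (7.75%) within 500 bases of its start, and 3 touched both. Among 14991 loci under the read minimum the shares were 91.1% body, 3.58% end and 5.02% start. Loci under the minimum were narrower, with a median of 737 bases. The middle of the locus fell within 500 bases of the gene's end for 4.36% of the loci and of its start for 4.28%, against 2.19% and 3.26% under the minimum, and 1 such window inside the gene held 0.603% of the bases of those genes. Measured against any annotated transcript of the gene, 22.5% of the loci lay at an end, 16.9% at a start and 8.88% at both.

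**Figure D3:**
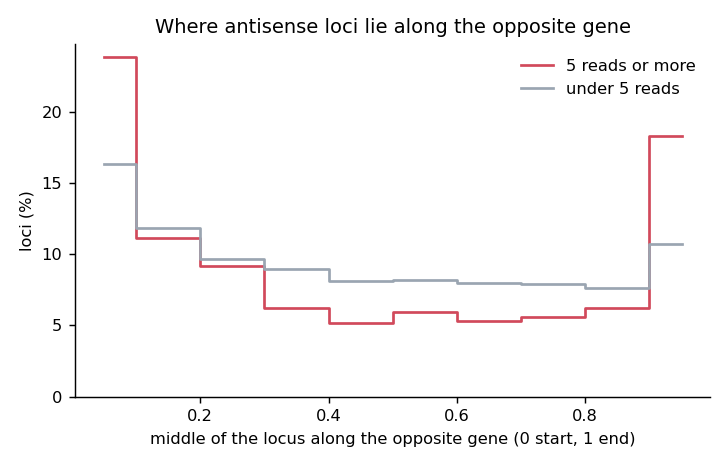
Share of loci (vertical axis, %) by the place of their middle along the opposite gene in 10 equal bins of its length (horizontal axis, 0 the start and 1 the end), for loci of 5 or more reads (red) and under 5 reads (grey), leaving out middles beyond the gene. The first bin holds 23.8% of the loci of 5 or more reads and the last bin 18.3%, against 16.3% and 10.7% under the minimum.

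Loci at gene ends carried more reads each, with a median of 16.5 against 10 in the body, and together 21.3% and 22.2% of the reads in the 2 libraries. The 5′ end of the locus lay within 50 bases of an annotated transcript end of the opposite gene at 148 loci (11.9%), against 6.46% of loci under the minimum. Of these, 140 lay at exactly that base and none between 1 and 10 bases away. Under the minimum, 872 lay at exactly that base and 892 within 10 bases. The 3′ end lay within 50 bases of an annotated start at 87 loci (7.02%, under the minimum 3.88%), 75 of them at exactly that base. An annotated gene of the same strand ended within 5000 bases upstream of 147 loci (11.8%, under the minimum 8.11%), and a spliced antisense model lay over or within 100 bases of 43 (3.44%).

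Exons took a large part of the reads. Of the 1239 loci, 367 (29.6%) lay wholly inside exons of the opposite gene, 437 (35.3%) spanned exon and intron, and 435 (35.1%) touched no exon. Under the minimum, 15.4% lay inside exons and 54.0% touched none. The loci inside exons held 51.4% of the antisense reads, and 260 of the 367 lay mostly in 3′ untranslated regions. Of the 40 loci with the most reads, 34 lay inside exons.

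The 2 loci in the ribosomal RNA region of chromosome 17 were among the 3 with the most reads. On the minus strand, chr17:39843013-39846245, opposite the lincRNA gene Gm26917, had 758 and 1287 reads. The opposite-strand gene had 81 and 92. On the plus strand, chr17:39846353-39846958 had 278 and 509 reads against 4 and 0 for CT010467.1, annotated as rRNA. The plus-strand locus lay wholly inside exons of CT010467.1. RefSeq places the ribosomal RNA pseudogene Rn18s-rs5 at chr17:39846354-39848202 in GRCm38.p6, a span that holds nearly all of the plus-strand locus. Whether that locus is sense or antisense to Rn18s-rs5 was not tested. Models of Gm42418 lay on the same strand as the locus, over it or within 100 bases. Together the 2 loci held 13.5% and 10.2% of the antisense reads, and without them loci touching both ends of a gene held 0.347% and 0.304% of the reads in place of 10.2% and 7.59%.

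Actb, the gene of cytoplasmic beta-actin, faced the locus with the second most reads, chr5:142901288-142903654 on the plus strand, which extends beyond the end of Actb. It had 209 reads in replicate 1 and 648 in replicate 2, while Actb had 444 and 889. In CPM the locus stood at 526 and 910, so it was higher in replicate 2. Its 3′ end was the same base in both libraries, next to the run of adenines printed above. That base is also exactly an annotated transcript start of Actb. At the 5′ end the most-read models of the 2 libraries differed by 1946 bases. The most-read model over both libraries, chr5:142903234-142903654, lay inside Actb. Tubb5, a beta-tubulin gene and the other member of the actin and tubulin list with a locus, had 23 and 43 antisense reads against 130 and 199, with no adenine among the 20 bases after the end of its most-read model. The other 11 read genes of that list had no locus.

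Other gene-end loci faced genes with fewer sense reads than Actb. The Tacc1 locus, opposite a centrosome-associated coiled-coil gene, had 57 and 122 reads against 5 and 33 for the gene. The locus opposite the lincRNA gene 2900097C17Rik had 79 and 192 against 21 and 32. Tmem250-ps, annotated as a lincRNA gene, had 20 and 35 reads and its antisense locus 90 and 220. In these 3 pairs the antisense locus had more reads than the gene in both libraries.

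In gene bodies, as set by the start and end of the whole gene, Kcnk3 had the most antisense reads. Measured against any annotated transcript, the loci of Kcnk3 and Gnb1 lay at an end, that of Malat1 at a start, that of Ptp4a2 at both, and that of Cdv3 in the body. Kcnk3 encodes the potassium channel TASK-1, which sets the membrane potential of adrenal cortex cells. Its locus, chr5:30621891-30624756 on the minus strand, lay 67.1% in the 3′ untranslated region and 32.9% in coding sequence. It had 120 and 193 reads, 302 and 271 CPM, and the gene 1472 and 2747 reads, so 7.54% and 6.56% of the reads were antisense. Its most-read models differed by 36 bases at the 5′ end and 823 bases at the 3′ end between the libraries.

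Ptp4a2, a protein tyrosine phosphatase gene, had 98 and 191 antisense reads against 113 and 153, and both ends of its most-read model were the same in both libraries. The 3′ end is exactly an annotated transcript start of Ptp4a2. Cdv3 had 93 and 184 against 7 and 30. Malat1, a nuclear long noncoding RNA, had 78 and 177 at its first locus against 59 and 165 reads of Malat1 itself. Gnb1, a G protein beta subunit gene, had 56 and 154 against 94 and 185. The antisense locus of Cdv3 had more reads than the gene in both libraries, and that of Gnb1 fewer.

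At gene starts, Dhrs3 stood far above the others. Dhrs3 encodes a retinaldehyde reductase, and its locus, chr4:144893077-144893585 on the minus strand, lay 86.2% in the 5′ untranslated region. It had 71 and 208 reads against 16 and 38 for the gene, with the same 3′ base in both libraries. That base is exactly an annotated transcript start of Dhrs3. The next 4 had fewer reads. Epas1, the gene of the hypoxia-inducible factor HIF-2 alpha, had 17 and 37 antisense reads against 11 and 17. Agap1, which encodes a GTPase-activating protein for ARF, had 17 and 35 against 7 and 4. Fosl2, an AP-1 family gene, had 3 and 47 against 44 and 57, and Fhdc1, a formin family gene, had 18 and 22 against 2 and 8.

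Across all loci, a read counts 1 sequenced molecule, so reads were compared between strands without division by length. The antisense share of the reads on both strands was 21.9% in the median, with quartiles of 8.30% and 45.9%. At 278 of 1239 loci (22.4%) the antisense locus had more reads than the whole opposite gene, and at 185 in each library. The opposite gene had 0 reads at 35. Across loci, antisense and sense CPM had a Spearman rho of 0.059 in replicate 1 and 0.057 in replicate 2, over the 1239 loci, whose 2 values share a library and its depth. Because the loci were selected on their antisense reads, rho describes the selected loci only, not antisense and sense levels in general. Most opposite genes were protein-coding, at 1180 loci (95.2%), with lincRNA genes at 27.

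**Figure D4:**
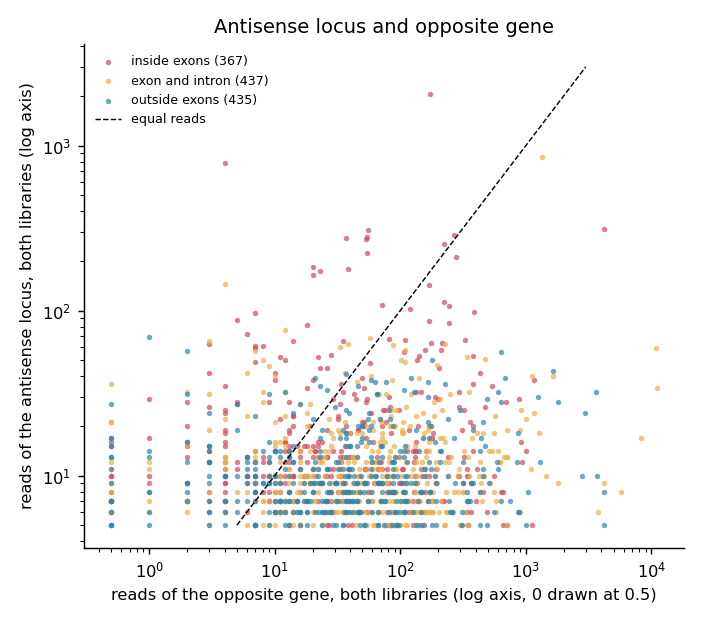
Reads of the antisense locus (vertical, log axis) against reads of the opposite gene (horizontal, log axis, 0 drawn at 0.5), summed over both libraries, for 1239 loci coloured by exon context, and the dashed line marks equal reads. The 278 loci above the line have more reads than the opposite gene, and the points with the most antisense reads are mostly loci inside exons, 34 of the highest 40.

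Genes with more reads more often faced a locus. Of 13668 protein-coding genes with reads, 7.47% faced one, from 2.19% in the lowest quintile by CPM to 13.0% in the highest. By gene length the share went from 3.40% in the shortest quintile to 10.5% in the longest. Several genes faced more than 1 locus, 135 of 1089 in all, and Zfp207, a zinc finger gene on chromosome 11, faced 5 loci with 32 and 55 reads in sum.

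The steroidogenic genes, which make adrenal steroids from cholesterol, faced loci at 6 of 18 members (33.3%), with 7 loci in all. The share was 7.47% over protein-coding genes with reads and 13.0% in their highest quintile by CPM. At each single locus the antisense share was between 0.305% and 4.20% over both libraries. Star, which moves cholesterol into mitochondria, had 15 and 44 antisense reads against 4612 and 6329. Hsd3b1 had 8 and 26 against 3722 and 7390. Fdx1, the electron carrier of the mitochondrial P450 enzymes, faced 2 loci with 18 and 22 and with 12 and 31 reads against 674 and 963. Mrap, the ACTH receptor's accessory protein gene, had 7 and 21 against 301 and 337. Nr5a1, the gene of the transcription factor SF-1, had 4 and 15 against 345 and 553, and Scarb1, the HDL receptor gene, 5 and 5 against 1145 and 1637.

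Of 12 cortex zone genes, 8 faced a locus (66.7%), against 7.47% of protein-coding genes with reads and 13.0% in their highest quintile by CPM. Like the other gene lists, this list was chosen with earlier results of these data known, and the share was not matched for level or gene length. Beside Kcnk3 the 8 genes included Thrb, the thyroid hormone receptor beta gene, with 21 and 44 antisense reads against 4 and 10. Agtr1a, the angiotensin II receptor gene of the outer cortex, had 7 and 18 against 41 and 32. Akr1c18, a progesterone-metabolising enzyme gene, had 3 and 14 against 2870 and 5385, and Akr1cl 4 and 6 against 952 and 2709. Dab2 faced 2 loci, 3 and 14 reads and 1 and 16 reads, against 67 and 85. Abcb1b had 3 and 5 and 0 and 5 reads at its 2 loci, and Wnt4 0 and 5 at its single one. Thrb was the only gene of this list whose antisense locus had more reads than the gene.

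The chromaffin list, genes of the catecholamine cells of the medulla, had 3 of 24 members with a locus (12.5%). The share was 7.47% over protein-coding genes with reads and 13.0% in their highest quintile by CPM. Chgb, a granin of the secretory granules, had 6 and 3 antisense reads against 1263 and 2916. Chga, another granin, had 1 and 7 against 1916 and 3799. Of the clock genes only Per1 faced a locus, 1 of 15 with reads (6.67%), with 10 and 17 antisense reads against 5 and 11. No immediate early gene of 11 with reads faced one.

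Imprinted genes faced loci at 3 of 24 members with reads (12.5%), against 6.43% of all annotated genes with reads. These shares were not matched for level or gene length. The noncoding Meg3 had 2 loci with 3 and 18 and with 4 and 7 reads against 118 and 336. Grb10, an adaptor of insulin receptor signalling, had 4 and 9 and 1 and 6 against 16 and 25, and Impact 2 and 6 against 5 and 11. Ribosomal protein genes faced loci at 3 of 97 (3.09%), which were Rps7 with 1 and 7 reads, Rpl10 with 3 and 5 and Rplp1 with 0 and 5. Of the genes encoded in mitochondrial DNA, only the tRNA gene mt-Tn, itself without reads, faced a locus, with 0 and 6 reads.

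Levels were then compared between the 2 libraries. A locus could be selected on the reads of either library, and 822 loci were selected on replicate 2 alone against 65 on replicate 1 alone, so the calls below describe the selected loci. Every annotated gene and every merged locus with 10 or more reads was tested with a two-sided exact binomial test against the library totals, adjusted by Benjamini-Hochberg over all 9973 features, of which 2.24% were called at 0.05. Of 695 loci tested, 23 (3.31%) were called, 13 higher in replicate 2 and 10 higher in replicate 1. The median log2 ratio of the loci was 0.26, against 0.03 for annotated genes. The share called was 2.16% among annotated genes alone.

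At most of the called loci the library without reads had them under another model of the same strand. Of the 23 loci, 15 had no read in 1 library, and in all 15 that library had same-strand reads in other models within 100 bases. The 2 Gm2a loci show this. Replicate 1 had 84 reads at base 55110228 of chromosome 11 and 0 at base 55110225, while replicate 2 had 0 and 106, both on the minus strand in the 3′ untranslated region of Gm2a, the gene of the GM2 ganglioside activator protein. Both were recorded as models of 1 base, 3 bases apart, before the same run of adenines. Summed, the 2 libraries had 84 and 106 reads, with an adjusted p of 0.28 in the exact binomial test.

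Tbx3, the gene of a T-box transcription factor, had 67 and 0 antisense reads, while other same-strand models, led by the annotated antisense gene Tbx3os1, had 11 and 167, so with all of them counted the libraries had 78 and 167 (adjusted p = 0.72, exact binomial test). Neat1, a nuclear long noncoding RNA, had 26 and 0 at its locus and 30 and 60 with all same-strand models. Ppp1r10 had 25 and 0 at one locus and 0 and 41 at another 18 bases away. At 3 more loci an annotated gene of the same strand led the added reads. Gm17077, itself annotated as an antisense gene and without reads, went from 17 and 0 to 19 and 47, with Usf2 leading. Dusp3 went from 16 and 0 to 16 and 43, with Gm20659 leading, and Sema4b from 0 and 16 to 10 and 16, with Cib1 leading. Hnrnpu went from 0 and 18 to 5 and 19, and Vps26c from 0 and 17 to 3 and 17. The last called locus of the 6 highest in replicate 2, chr11:103126288-103131816 on the plus strand with no annotated partner, went from 0 and 16 to 5 and 17. With every same-strand model within 100 bases counted, a choice made after the data were seen, 10 of 730 loci were called, and 7 of the 23 kept their call and direction.

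Among the loci with reads in both libraries, Actb was called at a log2 ratio of 0.79 of replicate 2 over replicate 1 (adjusted p = 3.5e-10, exact binomial test). Dhrs3 was called at 0.70 (adjusted p = 0.018). Both were also called with all same-strand models counted. With no read minimum on the features tested, Dhrs3 was no longer called (adjusted p = 0.059, exact binomial test), and over its 5 alternatives the adjusted p ran from 0.0079 to 0.059. Kcnk3 had a ratio of -0.16 (adjusted p = 0.83) and the Gm26917 locus -0.08 (adjusted p = 0.75), and neither passed.

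The antisense to sense ratio was compared for loci with 10 or more reads on each strand, with Fisher's exact test (two-sided), adjusted by Benjamini-Hochberg over all 567 loci tested, of which 3.7% were called. The calls were 21 of 560 loci of 5 or more reads, 12 with the higher ratio in replicate 2 and 9 in replicate 1. Actb was among them, at a log2 change of 0.63 (adjusted p = 6.8e-04, Fisher's exact test), from 32.0% antisense in replicate 1 to 42.2% in replicate 2. Fosl2 went from 6.38% to 45.2% (log2 change 3.39, adjusted p = 6.7e-05), although with all same-strand models, Gm10463 leading, its antisense reads were 17 and 50. Sdc3, a syndecan gene with 0 and 15 antisense reads and no other same-strand read within 100 bases, had a log2 change of 4.58 (adjusted p = 0.012). The second Dab2 locus, with 1 and 16 reads, had one of 3.12 (adjusted p = 0.043). Gja1, the connexin 43 gene, had 11 and 0 antisense reads and 15 and 19 with all same-strand models. The part of the liver reads of replicate 1 in any of these differences was not tested.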

How the data were processed

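The deposited files give read counts per transcript model, 1 table a library, with TALON identifiers, mm10 coordinates and GENCODE M21 as annotation, per the file headers and the deposited text notes. The aligner is not given in the sources used here. Each deposited count is a whole number of reads, not normalized by the authors. Positions of new models were read from the deposited annotation. Single-exon antisense models of 5 or more reads were merged where they overlapped by 1 base or more on the same strand. Reads of models under the minimum were added to the locus they overlapped. The opposite gene was the annotated gene with the largest overlap, which was the deposited partner for 97.0% of 1659 models. A window of 500 bases set start and end. Member loci and gene lists were chosen with earlier results of these data known. Named loci were the 12 with the most reads, the 5 with the most in each place, up to 6 in each direction of each test, and all opposite a listed gene. Some loci that this rule names are not reported here. Loci printed as sequence, and Zfp207, were chosen after their values were seen. Log2 ratios had 0.5 reads added. Tests used scipy 1.17.1 and TMM scaling edgeR 4.0.16, and the binomial test was tested on simulated data.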

Additional observations from a re-analysis of the deposited data

How the results depend on the processing

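The number of loci, 1250, was 2668 at a minimum of 3 reads, 409 at 10 and 614 with the minimum raised to 9 in the deeper library, and lay between 432 and 1187 with 1 library left out. It stayed within 1.5 times under the other merging rules. The body share was 84.5%, 75.1% and 76.0% under the 3 other minimums and the end share 7.79%, 17.8% and 15.3%. With 1 library left out the body share ran from 77.6% to 82.5% and the end share from 9.93% to 13.8%. A window of 250 bases gave a body share of 84.2%, and 1000 bases gave 71.2%, with 14.4% at ends and 13.6% at starts. Annotated transcript ends gave 51.7%, 22.5% and 16.9%. Counting spliced models put the repeat of replicate 1 models at 97.7%, and requiring 2 reads put that of replicate 2 models at 67.7%. Within 200 bases, 15.7% of 5′ ends lay at an annotated end and 9.60% of 3′ ends at a start. Adenine-rich 3′ ends off exon boundaries stood at 78.0%. The 23 loci called between libraries were 15 with no read minimum, 13 at 20 reads and 10 with all same-strand models, added after the data were seen, which turned the log2 ratio at Gm2a to -0.51, Tbx3 to 0.25, Ppp1r10 to -0.14, Neat1 to 0.15, Gm17077 to 0.44, Dusp3 to 0.56 and Sema4b to -0.19. The other totals and sense definitions kept the counts within 1.5 times. The tests between libraries could not be rerun without 1 library. The planned count of adenines over all loci was not run for lack of a genome sequence, and the exon version was added after the data were seen. No paired analysis was possible because there was 1 group. Depth limits a count of 0 to 7.55 CPM in replicate 1 and 4.21 CPM in replicate 2.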
